A study of Mus musculus with 6 samples.

Results

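REST, the RE1-silencing transcription factor, and 9 genes of its corepressor machinery were followed across 6 primary lines of a mouse model of small cell lung carcinoma. The 10 genes were chosen by symbol, namely Rest, Rcor1, Rcor2, Rcor3, Sin3a, Hdac1, Hdac2, Kdm1a, Ehmt2 and Ctdsp1, and every array probe of each was used. A probe could be assigned to 9 of the 10 genes through its transcript accession, and Hdac1 was not analysed here. These 9 genes had 12 probes, all of which entered the test, and they made up 9 of the 19859 features tested.

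Of the 6 lines, 3 are labelled SMC and 3 non-SMC, and the labels do not spell out the abbreviation. All 6 lines were derived from lung tumours of C57BL/6J mice with the alleles Rb1L/L and Trp53L/L, so SMC and non-SMC lines share this genotype. The labels name no Cre driver, age or passage. They tie the lines into 3 pairs, R716T2 (female), R1563 (male) and R1611 (female), numbered here as replicates 1, 2 and 3, and each line was measured once on a 1-colour Agilent array. The p-values therefore measure the spread between 3 pairs of lines.

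REST is a zinc-finger repressor that binds a DNA element called RE1 near many neuronal and neuroendocrine genes and keeps them silent in other cell types. It recruits CoREST proteins, which carry the histone demethylase LSD1 and histone deacetylases, through its C terminus, and SIN3 with further deacetylases through its N terminus. Histone methyltransferases and small CTD phosphatases join these complexes. REST is usually low in neurons and neuroendocrine cells, which is why its targets serve as markers of such cells.

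Levels below are on a log2 scale on which 0 is the 75th percentile of the array in question, and differences are SMC minus non-SMC. On each array 64.1% to 68.5% of probes were well above background and none was saturated. The arrays lay on 3 slides. Of the 6 arrays, those of SMC lines 1 and 2 and of non-SMC lines 2 and 3 shared a slide, and pair 2 was the pair with both lines on it. Over all features, 31 were higher in SMC lines (0.156%) and 602 were lower (3.03%) at an adjusted p under 0.05 (limma, paired fit, Benjamini-Hochberg adjustment), and the median difference was 0.18. At an unadjusted p under 0.05, limma picked 2969 of the 19859 features with higher and 2338 with lower values in SMC lines.

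The sequence that REST recognises can be read in the promoters of genes measured here. The fixed core searched was AGCACC, 2 free bases and GGACAG, on either strand, in windows from 250 bases before to 50 bases after each RefSeq gene start (GRCm38.p6). On the opposite strand the same core reads CTGTCC, 2 bases and GGTGCT. It occurred in 17 of 32851 windows (0.0517%), belonging to 16 genes, and 10 of these genes were tested. Their elements are shown because the core picks genes by sequence. Being tested, however, also required signals well above background on every SMC array or every non-SMC array. Of these 10 genes, 4 met this only through the SMC lines. Each is printed 5′ to 3′ on the strand of the gene, with the fixed letters of the core in capitals.
Robo2 (chr16:75447341-75447384, minus strand): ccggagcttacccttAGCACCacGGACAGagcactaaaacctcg
Scamp5 (chr9:57468183-57468226, minus strand): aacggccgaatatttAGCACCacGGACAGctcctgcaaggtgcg
Ogdhl (chr14:32321902-32321945, plus strand): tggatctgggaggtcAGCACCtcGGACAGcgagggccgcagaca
Gria2 (chr3:80802977-80803020, minus strand): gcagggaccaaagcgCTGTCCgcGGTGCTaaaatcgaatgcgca
Hrh3 (chr2:180104562-180104605, minus strand): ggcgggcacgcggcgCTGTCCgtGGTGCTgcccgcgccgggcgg
Fbll1 (chr11:35799044-35799087, minus strand): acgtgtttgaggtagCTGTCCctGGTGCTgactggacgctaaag
Lca5 (chr9:83441276-83441319, minus strand): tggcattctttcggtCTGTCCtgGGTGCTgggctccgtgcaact
Osbp2 (chr11:3774779-3774822, minus strand): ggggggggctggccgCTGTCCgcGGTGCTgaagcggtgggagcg
Sptbn4 (chr7:27396268-27396311, minus strand): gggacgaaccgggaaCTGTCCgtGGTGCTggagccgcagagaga
Ttc9b (chr7:27653927-27653970, plus strand): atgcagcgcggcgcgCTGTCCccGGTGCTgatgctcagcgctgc

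Allowing 1 mismatch among the 12 fixed letters gave 116 windows (0.353%). Of 40 genes known as REST targets, 29 had a window in the table. Gria2 held the exact core, and Celsr3, Grin1 and Syn1 held it with 1 mismatch, which stands in lower case inside the core. These 3 are shown because they are established targets whose window carries the element.
Celsr3 (chr9:108825906-108825949, plus strand): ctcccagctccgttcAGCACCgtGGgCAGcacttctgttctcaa
Grin1 (chr2:25319285-25319328, minus strand): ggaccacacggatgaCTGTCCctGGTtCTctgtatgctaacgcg
Syn1 (chrX:20921119-20921162, minus strand): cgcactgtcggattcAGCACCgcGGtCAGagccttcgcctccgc
None of the 8 members with a window in the table (Rcor1, Rcor2, Rcor3, Sin3a, Hdac2, Kdm1a, Ehmt2 and Ctdsp1) held the core, exactly or with 1 mismatch. This says only that those letters are not in these windows.

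Rest, the DNA-binding member, was the member that passed the test: it was lower in SMC lines in all 3 pairs. By its brightest probe the level was -5.01, -6.62 and -5.31 in SMC replicates 1 to 3, against 1.56, 1.05 and 1.96 in the non-SMC lines in the same order. Every SMC line lay far below every non-SMC line, and the value of SMC replicate 2 was not well above background. The means were -5.65 ± 0.86 in SMC and 1.52 ± 0.45 in non-SMC lines (SD, n = 3 each). The difference was -7.17 ± 0.36 (SE, 3 pairs; 95% interval -8.15 to -6.19), with an adjusted p of 0.00821 in limma's paired fit. It includes the 1 SMC signal that was not well above background, and with such dim signals set to the floor it was -7.03 (limma adjusted p = 0.00688). Fewer cells of a type and less RNA per cell cannot be told apart in such bulk samples.

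The 3 pairs gave Rest differences of -6.57, -7.68 and -7.27. The spread between pairs was thus small beside the difference itself. The value of pair 2, whose lines shared a slide, rests on the SMC signal that was not well above background. The 4 arrays of that slide alone, in an unpaired fit, gave -7.32 with a limma adjusted p of 0.0317. The other Rest probe was not well above background in any SMC line, with signals of -6.84, -8.53 and -7.72, against -0.21, -0.62 and 0.12 in non-SMC lines. SMC lines have only a bound there, set at the lowest signal counted as well above background on each array where the probe's own is lower. Against that bound, Rest was at least 66.8-fold lower in SMC lines by this probe. The fitted difference of -7.46, which includes the dim signals, had a limma adjusted p of 0.00808 over all probes.

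Rest passed the filter on dim probes only through the non-SMC lines. With normexp background correction the difference was -4.63 (limma adjusted p = 0.00495), and without pair 3 it was -7.12 with a limma adjusted p of 0.0657, above the 0.05 limit.

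Of the 9 fibroblast and mesenchymal markers tested, limma called 6 lower in SMC lines, beside 3.03% of all features. Of the 9, 5 had passed the filter only through the non-SMC lines, where they were high. Of all 10 fibroblast and mesenchymal markers, 5, 5 and 6 were well above background in SMC lines, against 9, 9 and 10 in non-SMC lines. Their summed signal ran from 0.553 to 2.53 in SMC lines, against 191 to 585 in non-SMC lines, in units of each array's 75th percentile. Vim, the mesenchymal intermediate filament, was well above background in 1 of 3 SMC lines, and its fitted difference of -12.84 ± 0.55 (SE, limma adjusted p = 0.00742) includes the dim signals. The collagen gene Col1a2, detected on all arrays, differed by -11.76 ± 0.61 (SE, limma adjusted p = 0.00847). The collagen genes Col1a1 and Col3a1 were not well above background in any SMC line and were among the 6. Dcn at -4.51 ± 3.44, Pdgfra at -2.87 ± 1.38 and Thy1 at 0.91 ± 1.06 (SE) did not pass, and the sign of Thy1 is opposite to the others.

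Of 8 leukocyte markers, 3, 4 and 5 were well above background in SMC lines, against 3, 3 and 8 in non-SMC lines, with summed signals of 0.132 to 1.27 against 1.81 to 15.01. Of the 3 leukocyte markers tested, limma called 1 lower, beside 3.03% of all features. This was Cd14, a monocyte receptor well above background in 2 of 3 SMC lines, at -7.71 ± 0.70 (SE, limma adjusted p = 0.0233). Cd14 had passed the filter only through the non-SMC lines, and its difference includes a dim signal. Of 5 endothelial markers, Kdr was well above background in 1 SMC and 3 non-SMC lines and Tek in 2 SMC and 0 non-SMC lines, while Pecam1, Cdh5 and Emcn reached it on none of the arrays. Epithelial markers varied between lines of both groups, with 0 of 6 called by limma and none at an unadjusted p under 0.05, Krt19 at -5.42 ± 3.58 and Epcam at 2.31 ± 2.91 (SE) being farthest from 0. Neuroendocrine markers, which define the labelled tumour type, were well above background for 10 of 10 genes in every SMC line and for 9, 10 and 10 genes in non-SMC lines, with pair medians of 6.31, 1.18 and 5.86. Limma called 0 of these 10, with 8 at an unadjusted p under 0.05, all higher in value in SMC lines, beside 2969 of all 19859 features. Ddc, an enzyme of amine synthesis, differed by 5.86 ± 1.71 (SE, limma adjusted p = 0.145). The part of these cell type markers in the Rest and target values was not tested.

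**Figure D1:**
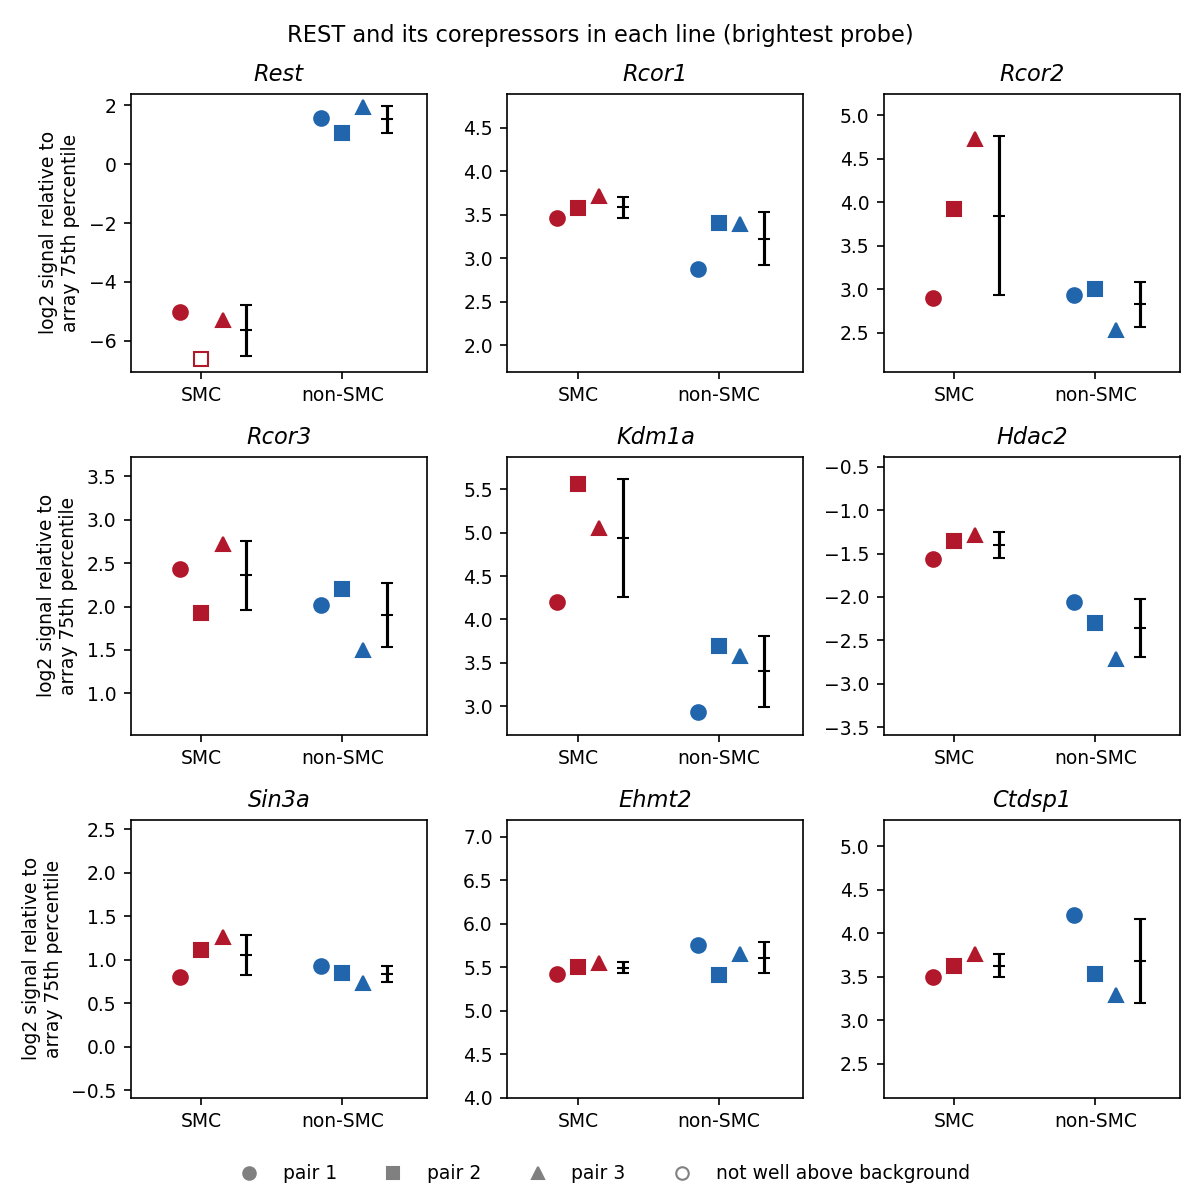
Log2 signal of the brightest probe of each of the 9 measured members (vertical axes, relative to the 75th percentile of the array) in SMC lines on the left and non-SMC lines on the right, with bars for the mean ± SD and 1 symbol shape per pair; open symbols were not well above background. Rest lies between -6.62 and -5.01 in SMC and between 1.05 and 1.96 in non-SMC lines. The levels of Rcor2, Rcor3, Sin3a, Ehmt2 and Ctdsp1 overlap between the groups.

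The 8 corepressor genes were well above background on all 6 arrays, and none passed the test in either direction. Among the 9 members tested, 0 were higher in SMC lines, against 0.156% of all features, and 1 was lower, against 3.03%. SMC and non-SMC values did not overlap for 4 of 9 members (Rest, Rcor1, Hdac2 and Kdm1a), a property shared by 38.2% of all features. At an unadjusted p under 0.05, limma picked 2 of the 8 corepressors, both with higher values in SMC lines. Among all 19859 features, that limit picked 2969 with higher and 2338 with lower values. The corepressors' median difference was 0.41, with 6 of 8 above 0, beside 0.18 for all features.

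Kdm1a encodes LSD1, the demethylase that removes methyl groups from histones in the CoREST complex. Its level was 4.21, 5.55 and 5.05 in SMC lines, against 2.93, 3.69 and 3.58 in non-SMC lines. The groups did not overlap, and the pairs gave 1.27, 1.86 and 1.47. The difference of 1.53 ± 0.30 (SE; 95% interval 0.70 to 2.36), a 2.90-fold higher signal, had an unadjusted p of 0.00669 and a limma adjusted p of 0.0987, so it did not pass over all features. The 4 arrays of the shared slide, in an unpaired fit, gave 1.24 (limma adjusted p = 0.273).

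Hdac2 is a histone deacetylase held by both the CoREST and the SIN3 complex. It measured -1.57, -1.35 and -1.28 in SMC lines, against -2.05, -2.30 and -2.71 in non-SMC lines. Every SMC line was above every non-SMC line, with pair differences of 0.49, 0.95 and 1.43. The difference was 0.96 ± 0.34 (SE; 95% interval 0.03 to 1.88), with an unadjusted p of 0.0453 and a limma adjusted p of 0.179.

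The RCOR genes encode the CoREST scaffolds that bridge REST to LSD1 and the deacetylases. Rcor1, which encodes the founding CoREST protein, was at 3.47, 3.58 and 3.71 in SMC lines, against 2.88, 3.41 and 3.39 in non-SMC lines. Its groups just failed to touch, and its difference of 0.36 ± 0.29 (SE; 95% interval -0.44 to 1.16, limma adjusted p = 0.467) was close to its error. Its other probe gave 0.37 ± 0.30, with overlapping groups, at -2.08, -1.98 and -1.77 in SMC lines against -2.73, -1.98 and -2.24 in non-SMC lines.

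Rcor2, a CoREST paralogue prominent in stem cells and neural progenitors, varied most between SMC lines among the CoREST scaffolds. Its level was 2.90, 3.92 and 4.73 in SMC lines, against 2.93, 3.01 and 2.54 in non-SMC lines. Replicate 1 of SMC lay within the non-SMC values and replicate 3 lay furthest above them, and the pairs gave -0.04, 0.91 and 2.20. The difference was 1.02 ± 0.53 (SE; 95% interval -0.44 to 2.49, limma adjusted p = 0.293).

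Rcor3, the third paralogue, reached 2.43, 1.93 and 2.72 in SMC lines, against 2.02, 2.20 and 1.50 in non-SMC lines. The groups overlapped, and pair 2 ran the other way from pairs 1 and 3, at -0.27 against 0.40 and 1.22. Its difference was 0.45 ± 0.41 (SE; 95% interval -0.68 to 1.58, limma adjusted p = 0.518), and its other probe gave 0.38 ± 0.45 with the same signs in each pair.

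Sin3a, the scaffold of the other REST corepressor complex, measured 0.80, 1.11 and 1.26 in SMC lines, against 0.93, 0.85 and 0.74 in non-SMC lines. The values overlapped, and the difference was 0.22 ± 0.31 (SE; 95% interval -0.63 to 1.06, limma adjusted p = 0.681).

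Ehmt2, a methyltransferase that places repressive methyl marks on histones, was at 5.42, 5.51 and 5.55 in SMC lines, against 5.76, 5.41 and 5.66 in non-SMC lines. The groups overlapped, with a difference of -0.11 ± 0.29 (SE; 95% interval -0.91 to 0.68, limma adjusted p = 0.826). Ctdsp1, a phosphatase that acts on the tail of RNA polymerase II and also stabilises REST, was at 3.50, 3.62 and 3.76 in SMC lines, against 4.22, 3.53 and 3.29 in non-SMC lines. Its pairs gave -0.71, 0.09 and 0.47, and its difference of -0.05 ± 0.37 (SE; 95% interval -1.07 to 0.96, limma adjusted p = 0.942) had no stable sign. The interval of Ctdsp1 leaves room for changes of up to about 1 on the log2 scale either way. That of Sin3a reaches up to 1.06 and that of Ehmt2 down to -0.91, with less room on the other side.

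**Figure D2:**
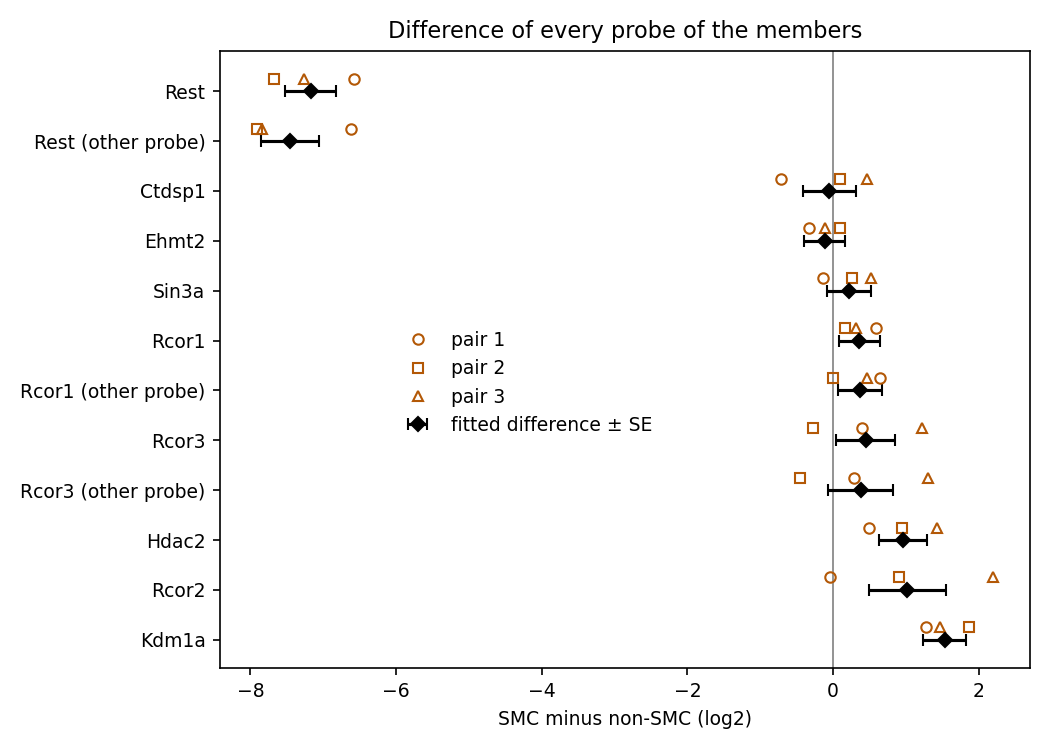
Difference in log2 signal, SMC minus non-SMC (horizontal axis), for each of the 12 probes of the members, with open symbols for the 3 pairs and diamonds with bars for the fitted difference ± SE. The brightest Rest probe lies at -7.17; the other Rest probe was not well above background in any SMC line, so its plotted position is a fitted value and not a measured difference. The other 10 probes lie between -0.11 and 1.53.

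Among genes of the wider CoREST and SIN3 complexes none passed the test either. All 32 listed partners were tested, and 0 were higher and 0 lower in limma's fit. At an unadjusted p under 0.05 there were 4, all with higher values in SMC lines, beside 2969 of all 19859 features. The partners' median difference was 0.35, with 21 of 32 above 0, beside a median of 0.18 for all features. The farthest from 0 was Gse1, a CoREST-associated protein. It measured 2.53, 2.84 and 2.08 in SMC lines, against -0.57, 1.46 and 0.60 in non-SMC lines, a difference of 1.99 ± 0.48 (SE, limma adjusted p = 0.120). Its values did not overlap between the groups.

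Regulators of REST itself were measured by 11 genes for its turnover, nuclear transport and splicing. None passed in limma's fit in either direction, 1 had an unadjusted p under 0.05, and the median difference was 0.10. Srrm4, the splicing factor that switches the Rest transcript to a truncated form in neurons, measured 1.49, 1.38 and 0.98 in SMC lines, against -3.31, 0.71 and -3.54 in non-SMC lines. SMC values were all higher, but non-SMC replicate 2 lay close to them, and the difference was 3.33 ± 0.98 (SE, limma adjusted p = 0.146), with 2.95 to 4.06 by its other probes. Prickle1, a protein that moves REST to the nucleus, measured -1.76, -5.78 and 0.60 in SMC lines, against -0.07, -1.77 and 0.85 in non-SMC lines, a difference of -1.98 ± 0.82 (SE, limma adjusted p = 0.219). Its groups overlapped. Which Rest transcript form a probe reads was not analysed here.

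Known REST targets were mostly at higher values in SMC lines, although none passed the adjusted test. Of 40 listed genes, the array held 37, and 34 passed the filter into the test. In limma's fit 0 were called in either direction, and 24 with higher and 1 with lower values had an unadjusted p under 0.05. Among all 19859 features, 2969 with higher and 2338 with lower values did. Of the 37 on the array, with no filter, 32 (86.5%) had a positive difference, against 56.4% of all named genes on the array. The median difference over the 34 tested was 3.84, and over the 37 on the array 3.31, where 12 of the 34 had passed the filter only through the SMC lines. The list was chosen with earlier results of these data known, and its counts are a description.

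The targets differed less between the lines of pair 2 than between those of pairs 1 and 3. The median signal of the 37 genes was 0.34, 0.13 and 0.29 in SMC lines, against -5.26, -0.79 and -4.41 in non-SMC lines. The second non-SMC line, of pair R1563, thus lay near the SMC lines in target level, while its Rest level, at 1.05, was near those of the other non-SMC lines. This nearness was not particular to the targets. The same line had a neuroendocrine marker median of 3.33, against -3.25 and -0.39 in non-SMC replicates 1 and 3. Over the features tested, it correlated with SMC lines at r of 0.83 to 0.86. For non-SMC replicates 1 and 3, r with SMC lines was 0.73 to 0.75. The pairs' median differences over the 34 tested genes were 5.76, 1.06 and 4.88. Without pair 2, 16 of the 34 were called higher with a median of 5.49, and without non-SMC replicate 2 in an unpaired fit, 22 were. Calls over all features rose as well, from 31 higher in the main fit to 523 and 1561 in these settings.

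**Figure D3:**
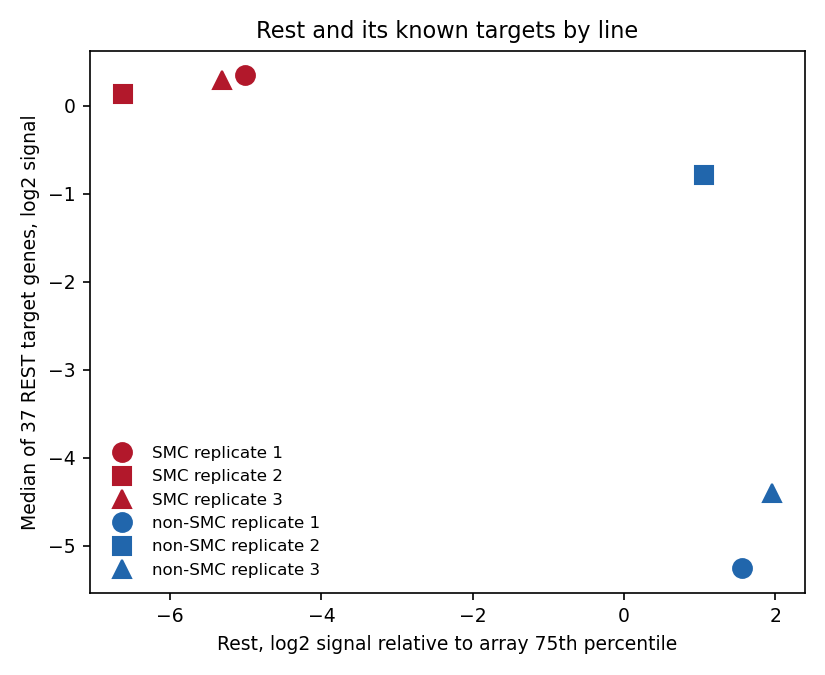
Rest (horizontal axis, log2 signal of the brightest probe relative to the array's 75th percentile) and the median log2 signal of 37 known REST targets (vertical axis) in each of the 6 lines, with SMC lines in red and non-SMC lines in blue. SMC lines sit at low Rest with target medians from 0.13 to 0.34, and non-SMC replicate 2 sits at high Rest with a target median of -0.79.

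Among the targets, the secretory granule protein Chgb had the largest value. It measured 4.29, 3.64 and 5.09 in SMC lines, against -5.41, 2.02 and -2.07 in non-SMC lines, a difference of 6.16 ± 1.70 (SE, limma adjusted p = 0.137). Cplx1, which controls synaptic vesicle fusion, measured 1.39, 0.73 and 3.03 in SMC lines, against -6.35, -1.48 and -4.97 in non-SMC lines, a difference of 5.98 ± 1.35 (SE, limma adjusted p = 0.114). It was well above background in 2 of 3 non-SMC lines, so this difference includes a dim signal. For both genes every SMC line was above every non-SMC line. The difference did not pass in either case, and in both the non-SMC line of pair 2 lay nearest to the SMC lines.

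Targets with negative differences, named after their values were seen, were Bdnf, Scn2a, Stx1a and Syn1. Bdnf, a neurotrophin, measured -0.91, -2.14 and -4.05 in SMC lines, against 1.33, 2.06 and 1.48 in non-SMC lines, a difference of -3.99 ± 0.72 (SE, limma adjusted p = 0.0870). Its groups did not overlap, whereas those of Scn2a, Stx1a and Syn1 did. For Syn1, a synaptic vesicle protein, the 2 probes disagreed, at -0.42 for the brightest and 2.31 for the other.

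Genes whose promoter window holds the exact core stood mostly at higher values in SMC lines. Of 16 such genes, 14 were on the array, and 13 of these (92.9%) had a positive difference, against 56.8% of all genes on the array with a window. The 10 that were tested had a median difference of 3.52, with 4 having passed the filter only through the SMC lines, and over the 14 it was 1.67. Robo2 was called higher (limma, 1 of 10), beside 0.156% of all features. In 4 of 21 alternative settings no gene with the core was called, normexp and leaving out pair 1 or pair 3 among them. Without pair 2, 5 were called higher, while calls higher over all features rose from 31 to 523. With 1 mismatch allowed, 47 genes were tested, with a median of 0.63 and 34 above 0 (72.3%). Over all tested genes with a window, the median was 0.09 and 54.3% were above 0. Of the 47, 11 had passed the filter only through the SMC lines and 2 only through the non-SMC lines.

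Robo2, an axon guidance receptor of the SLIT ligands, was at -4.14, -4.34 and -3.52 in SMC lines, against -8.65, -8.22 and -7.99 in non-SMC lines. The groups did not overlap. The probe was not well above background in any non-SMC line and passed the filter only through the SMC lines. With a bound for the non-SMC lines, the signal was at least 5.13-fold higher in SMC lines. The fitted difference of 4.29, which includes the dim signals, had a limma adjusted p of 0.0153. The other Robo2 probe gave a difference of 2.48. Gria2, an AMPA receptor subunit with the exact core, measured 1.61, 1.84 and 3.74 in SMC lines, against -7.02, 1.21 and -4.06 in non-SMC lines, a difference of 5.69 ± 1.80 (SE, limma adjusted p = 0.159). It was well above background in 2 of 3 non-SMC lines and passed the filter only through the SMC lines. Celsr3, an adhesion receptor with the core and 1 mismatch, had 3.70 ± 1.10 (limma adjusted p = 0.149), and Grin1, an NMDA receptor subunit, had 2.03 ± 0.51 (limma adjusted p = 0.126). Gria2, Celsr3 and Grin1 are among the genes with printed elements, and none of the 3 passed the test. Others with printed elements lay nearer 0, with Lca5 at 0.52 ± 0.28, Sptbn4 at 0.27 ± 0.52 and Syn1, by its brightest probe, at -0.42 ± 0.37 (SE). Scamp5, Osbp2, Ogdhl, Fbll1, Hrh3 and Ttc9b had differences from 1.36 to 5.88. None of these passed the test either.

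**Figure D4:**
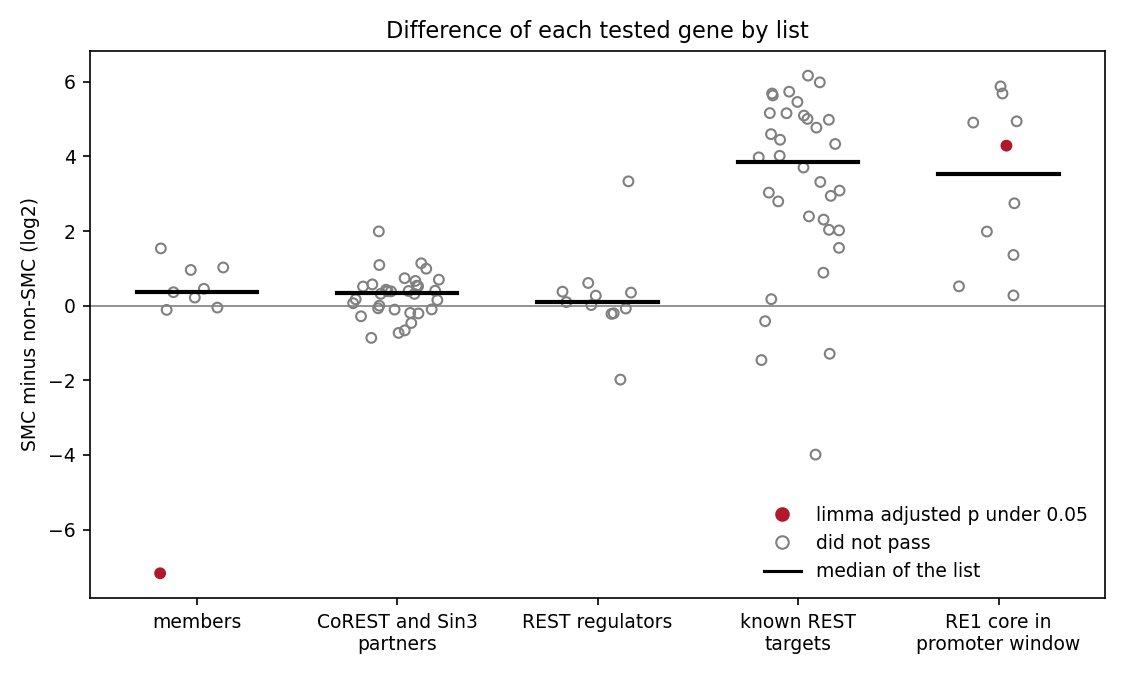
Difference in log2 signal, SMC minus non-SMC (vertical axis), of each tested gene in 5 lists, with a bar for the median of each list and filled points for a limma adjusted p under 0.05. Rest and Robo2 are the filled points, and the medians are 0.36 for the members, 0.35 for the CoREST and SIN3 partners, 0.10 for the regulators, 3.84 for known targets and 3.52 for genes with the exact core.

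Across the 6 arrays, the named genes whose pattern was most like that of Rest were Amotl2, an angiomotin-like scaffold (Pearson r = 0.998), Ifi204, Nacc2, Sparc and Asah2 (r = 0.995). The most opposite were Ppp2r3c (r = -0.998), Rab5b, Gas2l3, Kbtbd7 and Ankrd49 (r = -0.995). These are descriptions over 6 arrays that share their SMC and non-SMC labels, and 457 of 13320 named genes had r above 0.95. Among the corepressors, the values ran from -0.93 for Hdac2 and -0.90 for Kdm1a through -0.71 for Rcor2, -0.69 for Rcor1, -0.64 for Sin3a and -0.55 for Rcor3 to 0.07 for Ctdsp1 and 0.49 for Ehmt2.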

How the data were processed

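RNA of 6 lines was hybridised to Agilent arrays with 1 dye, per the labels. The deposited spot intensity is the processed signal of Feature Extraction 10.7.3.1, per the file headers (10.7 in the submitters' processing notes), background-subtracted and not normalized between arrays. The deposited series table holds log2 values, quantile-normalized, matching each array's own signals at r of at least 0.996. No header or label used here records further steps by the authors.

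Control spots (1639) and outlier-flagged spots were left out, spots of a probe were averaged, and log2 signal minus the array's 75th percentile (485 to 696 intensity units) was used. Probes were named by matching transcript accessions to a RefSeq table (GRCm38.p6): 27479 of 41174 matched, and 13695 stayed unnamed. Kept probes were well above background on every SMC array or every non-SMC array. The brightest probe stood for a gene, giving 19859 features, 13325 named. Limma 3.58.1 (R 4.3.3; 2 residual and 2.07 prior degrees of freedom) fitted pair and group. The number of arrays limits the precision. The labels give the pairs. Deviations from group means correlated at -0.01, 0.14 and 0.00 within pairs and -0.15 to 0.13 between them, so they do not show the pairing. The tests were checked on simulated data. That simulation capped the spread of each feature and held no pair effect, so it cannot speak for genes that vary widely between lines.

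Members, lists and tests were chosen with earlier results of these data known. Named genes were all members; per list up to 4 called genes with the largest difference, or else the 2 with the largest difference; and the 5 genes most like and 5 most unlike Rest. A few such genes are not reported here. Genes said to be named after their values were seen, and genes with printed sequences, come in addition. Alternatives are given in the closing section; those for the lists were chosen after seeing the data.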

Additional observations from a re-analysis of the deposited data

Results flagged for a closer look

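Rcor3 differed in direction between the male pair and the female pairs: the male pair gave -0.27, and the female pairs gave 0.40 and 1.22. Its other probe gave the same signs, at -0.45 in the male pair and 0.28 and 1.30 in the female pairs. Ehmt2 also differed in direction, at 0.095 in the male pair and -0.33 and -0.10 in the female pairs. The difference between male and female pairs was not tested, since there was 1 male pair, and neither gene passed the test over all pairs.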

How the results depend on the processing

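The Rest difference kept its direction in all 20 settings that gave a value, from -7.73 (deposited log2 values) to -4.63 (normexp), with adjusted p from 0.00134 to 0.0657. Leaving out a pair gave -7.47 to -6.92, leaving out a line without the block gave -7.49 to -6.69, and without replicate 3 it was -7.12 and no longer passed (adjusted p = 0.0657). Requiring detection on all arrays removed Rest, by construction, so 0 members were called lower; leaving out lines gave 0 to 1. No setting called a member higher. The pair is the replicate block; without the replicate block, Rest was -7.17 with an adjusted p of 0.00134, and no member's call changed. Features higher in SMC lines numbered 31, against 240 with median scaling, 54 with normexp, 7 with no filter, 4 with detection on all arrays, 54 with every probe as a feature, 277 with no replicate block, 9 with slide as a block and 20 on the shared slide alone, 0 to 523 without a pair, and, with no block, 98, 1561 and 17 without non-SMC replicates 1 to 3 and 80 without SMC replicate 2. Features lower numbered 602, against 975 with median scaling, 383 with no filter, 135 with detection on all arrays and 975 with no replicate block, 0 to 496 without a pair, and 1147 with no block and without non-SMC replicate 2. Of 168 corepressor values, 162 kept their sign and side of the threshold. The other 6 were all Ctdsp1, which turned positive. It was 0.014 under quantile normalization, 0.010 with the deposited values, 0.15 on the shared slide alone and 0.28 without pair 1. With no block, it was 0.22 without non-SMC replicate 1 and 0.012 without SMC replicate 1. Ctdsp1 stayed negative without pair 2, at -0.12, and without pair 3, at -0.31. The causes were not tested. Fits on the shared slide alone had no replicate block. Known targets called higher ranged from 0 to 22 and called lower from 0 to 2, with medians from 2.15 to 5.49. CoREST and SIN3 partners called higher ranged from 0 to 2, with none in 20 of 21 settings. Regulators of REST called higher ranged from 0 to 1, with none in 19 of 21 settings. No setting called a gene of these lists of partners and regulators lower. The number of arrays, and signals near background for Rest in SMC lines, limit the precision.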
